A study of Arabidopsis thaliana with 24 samples.

Results

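A set of 10 genes for carriers and channels that move nutrients and ions across root cell membranes was followed through sorted cells of the Arabidopsis thaliana root meristem. The 10 genes were given by their locus names, chosen by what they carry and with earlier results of these data known. All 10 were found among the 32619 gene rows of the deposited tables. They are NRT1.1 (AT1G12110) and NRT2.1 (AT1G08090) for nitrate, AMT1;1 (AT4G13510), AMT1;2 (AT1G64780) and AMT1;3 (AT3G24300) for ammonium, PHO1 (AT3G23430) for phosphate, AKT1 (AT2G26650) and SKOR (AT3G02850) for potassium, HKT1 (AT4G10310) for sodium and IRT1 (AT4G19690) for iron. The tables hold total RNA from 24 libraries of 3 GFP reporter lines in the Col-0 ecotype. In each line, protoplasted root meristem cells were sorted by GFP intensity into the zones Distal, Medial and Proximal. Cells of the PUB25 and SPT lines are labelled root meristem and were sequenced as 3 libraries for each zone. Those of the TMO5 line are labelled root meristematic xylem and had 2 for each. All groups share protoplasting and sorting. What drives GFP in each line, plant age, growth medium and the point from which Distal and Proximal are counted are not given in the sources used here.

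Roots take up ions from the soil through carriers and channels in the epidermis and cortex, which are powered by proton pumps in the plasma membrane. Inside the stele another set of proteins loads the ions into the dead xylem vessels that feed the shoot. NRT1.1 carries and senses nitrate, NRT2.1 is the main high-affinity nitrate carrier, the AMT1 proteins import ammonium, AKT1 is an inward potassium channel and IRT1 imports ferrous iron. PHO1 exports phosphate and SKOR releases potassium toward the xylem, and HKT1 takes sodium back out of the xylem sap.

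Each value below is the authors' FPKM (fragments scaled to transcript length and to the library's mapped total), which is per length and so can be set side by side between genes. There is 1 value per gene, line and zone, pooled by the authors over the libraries of that zone, so no SD or n can be given and the depth per library is unknown. Ratios between zones are log2 ratios of FPKM + 1, and they understate the change of genes with low levels. A gene is written to have risen or fallen only where its q value (the p-value adjusted by the authors) in the authors' deposited table is under 0.05. A gene whose 3 zones average 1 FPKM or more in a line is called measured there. Each line has a table of its own, and a common run of the 3 cannot be assumed, so levels were not tested between lines.

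In the libraries as a whole, 1 gene row, AT2G01021, held between 57.2% and 77.8% of the summed FPKM of a zone. The xylem label of the TMO5 line was set beside 11 xylem markers, of which 10, 7 and 10 reached 1 FPKM in Distal, Medial and Proximal cells, with summed levels of 873, 377 and 741 FPKM. The marker TMO5, the gene whose name the line bears, made up 240, 354 and 481 FPKM of these sums. The Medial sum thus rests mostly on that gene, and VND6 and TED6 were at 0 there. The 5 phloem markers summed to at most 0.471 FPKM in a TMO5 zone. Of 6 epidermis and root hair markers, 5, 4 and 4 reached 1 FPKM in TMO5 Distal, Medial and Proximal cells, with summed levels of 117, 132 and 156 FPKM. CPC alone made up 97.0, 119 and 146 FPKM of these sums.

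The results turn on 4 members, and the 250 bases before their RefSeq gene starts are shown here because NRT1.1, AMT1;1, AKT1 and PHO1 were the members with the highest levels. The sequences come from RefSeq's TAIR10.1 genome and are written 5′ to 3′ on each gene's own strand. Capitals mark the W box core TTGAC, searched on both strands, which WRKY factors bind; WRKY6 is known to repress PHO1.
NRT1.1, chr1:4104973-4105222, plus strand: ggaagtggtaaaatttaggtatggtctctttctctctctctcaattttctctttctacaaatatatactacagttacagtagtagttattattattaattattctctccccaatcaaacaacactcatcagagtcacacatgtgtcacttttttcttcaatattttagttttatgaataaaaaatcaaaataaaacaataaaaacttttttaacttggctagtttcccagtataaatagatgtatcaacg
AMT1;1, chr4:7857933-7858182, plus strand: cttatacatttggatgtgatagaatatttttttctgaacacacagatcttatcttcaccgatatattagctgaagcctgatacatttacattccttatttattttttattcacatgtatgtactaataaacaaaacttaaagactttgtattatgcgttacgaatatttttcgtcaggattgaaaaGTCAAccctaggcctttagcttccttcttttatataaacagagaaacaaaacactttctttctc
AKT1, chr2:11336739-11336988, minus strand: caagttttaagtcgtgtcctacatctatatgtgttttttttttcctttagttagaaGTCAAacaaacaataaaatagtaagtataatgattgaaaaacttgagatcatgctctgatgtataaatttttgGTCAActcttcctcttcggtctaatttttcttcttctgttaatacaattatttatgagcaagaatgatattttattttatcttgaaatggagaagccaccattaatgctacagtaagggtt
PHO1, chr3:8393468-8393717, minus strand: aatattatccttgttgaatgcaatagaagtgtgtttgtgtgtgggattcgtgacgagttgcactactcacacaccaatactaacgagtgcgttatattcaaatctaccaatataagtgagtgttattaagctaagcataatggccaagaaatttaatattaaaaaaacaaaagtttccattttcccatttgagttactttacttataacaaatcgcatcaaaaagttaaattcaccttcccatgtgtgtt
The window of AKT1 held 2 matches, that of AMT1;1 held 1, and those of NRT1.1 and PHO1 held none. Over all 10 members 3 windows held the motif, the third being that of NRT2.1, against 44.9% of 27443 windows of the same length before protein-coding genes. The binding site of the phosphate regulator PHR1, P1BS (GNATATNC), was in none of the 10 windows and in 5.46% of the 27443. A match says only that the letters are there, and the windows were not tied to any binding data. A window without a match says nothing of bases further upstream, which were not searched. The locus that the deposited table gives for AMT1;1 begins at 7858000, inside the AMT1;1 window.

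All 10 members are protein-coding genes. On the TAIR10 positions of the deposited tables NRT1.1 lies at chr1:4105233-4109545, AMT1;1 at chr4:7858000-7859918, AMT1;3 at chr3:8805631-8807388 and PHO1 at chr3:8387508-8393296. The locus given for AKT1 is chr2:11329870-11336607 and is shared with KCS11 on the other strand. The locus given for SKOR, chr3:618391-623558, is shared with AT3G02840, also on the other strand. That of AMT1;1 is shared with AT4G13505, which is antisense to AMT1;1 and overlaps it by 1709 bases in the reference. Whether reads were counted by strand is not stated, so reads of AMT1;1 and AT4G13505 cannot be told apart with certainty. AT4G13505 was listed at between 0 and 1.01 FPKM in the 9 zones. For AKT1 and SKOR the overlap with the neighbour is 9 bases in the reference.

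**Figure D1:**
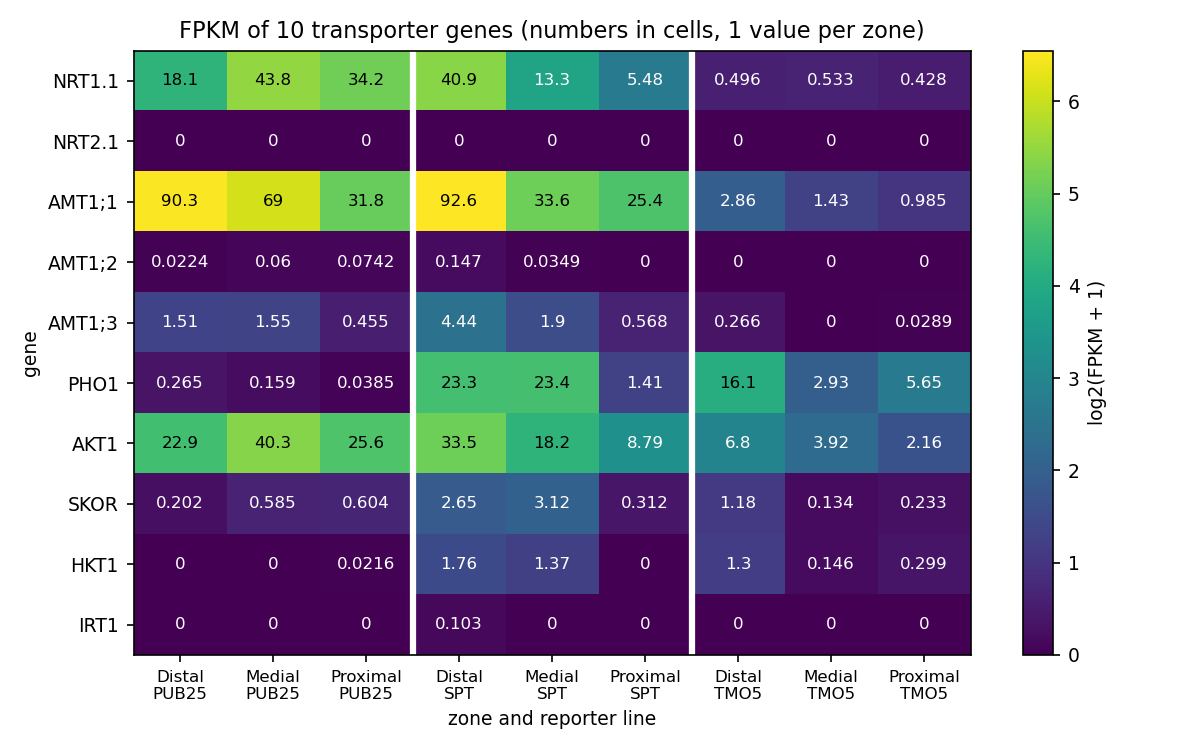
FPKM of the 10 transporter genes (rows) in the 3 zones of the PUB25, SPT and TMO5 lines (columns), 1 value per zone with no error, printed in each cell and coloured by log2(FPKM + 1). AMT1;1 reached 90.3 and 92.6 FPKM in Distal cells of the PUB25 and SPT lines, and NRT2.1 is at 0 throughout.

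The levels split the members into 3 tiers. NRT1.1, AMT1;1, AKT1 and PHO1 were the 4 members at 5 FPKM or more in at least 1 zone. AMT1;3, SKOR and HKT1 peaked at 4.44, 3.12 and 1.76 FPKM, each in the SPT line. NRT2.1, AMT1;2 and IRT1 stayed under 1 FPKM in all 9 zones. AMT1;1 was the highest member in all zones of both meristem lines except PUB25 Proximal, where NRT1.1 was at 34.2 FPKM and AMT1;1 at 31.8 FPKM. In the TMO5 line AMT1;1 came below PHO1 and AKT1 in each zone. The plot of all levels shows these tiers.

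NRT1.1, the nitrate carrier and sensor, was high in both meristem lines, where Distal against Proximal cells were called in opposite directions. In the SPT line it stood at 40.9 FPKM in Distal, 13.3 FPKM in Medial and 5.48 FPKM in Proximal cells. In the PUB25 line it stood at 18.1 FPKM in Distal, 43.8 FPKM in Medial and 34.2 FPKM in Proximal cells. The Distal zone is thus the highest of the 3 in SPT and the lowest in PUB25. In the authors' deposited table of the SPT line NRT1.1 rose in Distal against Proximal cells (log2 ratio 2.69, q = 0.000359), in Medial against Proximal cells (1.14, q = 0.00122) and in Distal against Medial cells (1.55, q = 0.000359). By the authors' deposited table of the PUB25 line it fell in Distal against Proximal cells (log2 ratio -0.88, q = 0.000407) and in Distal against Medial cells (-1.23, q = 0.000407). Its Medial level in PUB25 was not called against Proximal in the authors' deposited table (log2 ratio 0.35, q = 0.0555). The difference between the 2 lines was not tested. In TMO5 cells NRT1.1 was at 0.496, 0.533 and 0.428 FPKM in Distal, Medial and Proximal cells and so was not measured there.

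Such a turn was found for 394 of the 15908 genes measured in both meristem lines (2.48%), which were lower in PUB25 and higher in SPT in Distal against Proximal cells at a q under 0.05 in the authors' deposited tables, and 638 genes (4.01%) turned the other way. The summed level of the root cap markers had the same order of zones as NRT1.1 in both meristem lines, but its members differed. The 4 root cap markers summed to 623 FPKM in Distal, 227 in Medial and 162 in Proximal cells of the SPT line. In PUB25 cells they summed to 357 FPKM in Distal, 673 in Medial and 466 in Proximal cells. Within the TMO5 line, where NRT1.1 was under 1 FPKM, they summed to 15.3, 24.2 and 26.2 FPKM in Distal, Medial and Proximal cells. All 4 reached 1 FPKM in every zone of the meristem lines and 2 of 4 in each TMO5 zone, with none at 0. Of the 4, CEL5 followed NRT1.1 in both lines, at 313, 136 and 43.4 FPKM in Distal, Medial and Proximal cells of SPT and 78.8, 359 and 201 FPKM in those of PUB25. FEZ ran against NRT1.1 in SPT, at 1.43 FPKM in Distal, 11.3 in Medial and 45.1 in Proximal cells. In PUB25 FEZ was lowest in Distal cells, as NRT1.1 was, at 1.93 FPKM in Distal, 16.9 in Medial and 90.3 in Proximal cells. BRN2 was highest in Distal cells of PUB25, where NRT1.1 was lowest, at 229 FPKM in Distal, 209 in Medial and 45.3 in Proximal cells. In SPT BRN2 had the order of NRT1.1, at 233 FPKM in Distal, 31.8 in Medial and 5.33 in Proximal cells. SMB was, like NRT1.1, highest in Distal cells of SPT and lowest in those of PUB25, but the other 2 zones had the reverse order. It was at 75.5, 47.6 and 67.8 FPKM in Distal, Medial and Proximal cells of SPT. In those of PUB25 it was at 47.3, 87.8 and 129 FPKM. Distal against Proximal cells were called for SMB in PUB25 (q = 0.000407) and not in SPT (q = 0.683) in the authors' deposited tables. The part of these markers in the NRT1.1 result was not tested. As in all bulk samples, fewer cells of a type and less RNA per cell cannot be told apart.

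NRT2.1 was listed at 0 in all 9 zones. Its obligate partner protein NRT3.1, without which NRT2.1 does not reach the membrane, was present. NRT3.1 was at 202, 43.4 and 4.65 FPKM in Distal, Medial and Proximal cells of the SPT line. It was at 75.6, 132 and 37.7 FPKM in the same zones of the PUB25 line. According to the authors' deposited tables NRT3.1 rose in Distal against Proximal cells of both lines, with a log2 ratio of 5.16 in SPT (q = 0.000359) and 0.99 in PUB25 (q = 0.000407). It did not exceed 2.82 FPKM in a TMO5 zone. The related carriers NRT2.2, NRT2.4 and NRT2.5 did not exceed 0.211, 0.142 and 0.151 FPKM in a zone, each in the SPT line.

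AMT1;1, a high-affinity ammonium importer of the outer root, was highest in the Distal zone of all 3 lines. Within the PUB25 line it stood at 90.3 FPKM in Distal, 69.0 in Medial and 31.8 in Proximal cells. In SPT cells it stood at 92.6 FPKM in Distal, 33.6 in Medial and 25.4 in Proximal cells. The Medial zone is therefore near Distal in PUB25 and near Proximal in SPT. In the authors' deposited table of the PUB25 line AMT1;1 rose in all 3 zone pairs, with log2 ratios of 1.48 for Distal over Proximal (q = 0.000407), 1.09 for Medial over Proximal (q = 0.000407) and 0.38 for Distal over Medial (q = 0.0341). By the authors' deposited table of the SPT line it rose in Distal against Proximal cells (1.83, q = 0.000359) and in Distal against Medial cells (1.44, q = 0.000359), while Medial against Proximal was not called (0.39, q = 0.230). Among TMO5 cells AMT1;1 was at 2.86, 1.43 and 0.985 FPKM in Distal, Medial and Proximal cells, and Distal against Proximal was not called in the authors' deposited table (0.96, q = 0.490).

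AMT1;3 followed AMT1;1 at a far lower level. It was at 4.44, 1.90 and 0.568 FPKM in Distal, Medial and Proximal cells of the SPT line, and at 1.51, 1.55 and 0.455 FPKM in those of the PUB25 line. According to the authors' deposited tables it rose in Distal against Proximal cells of SPT (log2 ratio 1.80, q = 0.00196) and of the PUB25 line (0.78, q = 0.0130). In Medial against Proximal cells it rose as well in the authors' deposited tables, by 0.89 in SPT (q = 0.0348) and 0.81 in PUB25 (q = 0.0108). Distal and Medial cells were set apart in the authors' deposited table of the SPT line (0.91, q = 0.0342) and not in that of the PUB25 line (-0.03, q = 0.949). In the TMO5 line AMT1;3 was listed at 0 in Medial cells and reached at most 0.266 FPKM. AMT1;2, which is known from the endodermis and cortex of older root, reached at most 0.147 FPKM, in SPT Distal cells, and was listed at 0 in 4 of the 9 zones.

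AKT1, the potassium uptake channel, was the only member at 1 FPKM or more in all 9 zones. It stood at 33.5 FPKM in Distal, 18.2 in Medial and 8.79 in Proximal cells of the SPT line. In the PUB25 line it stood at 22.9 FPKM in Distal, 40.3 in Medial and 25.6 in Proximal cells. SPT thus has its peak in the Distal and PUB25 in the Medial zone, the arrangement seen for NRT1.1. In the authors' deposited table of the SPT line AKT1 rose in Distal against Proximal (log2 ratio 1.82, q = 0.000359), Medial against Proximal (0.97, q = 0.00622) and Distal against Medial cells (0.85, q = 0.00941). By the authors' deposited table of the PUB25 line it rose in Medial against Proximal cells (0.64, q = 0.000407), fell in Distal against Medial cells (-0.79, q = 0.000407) and was not called in Distal against Proximal cells (-0.16, q = 0.535). In TMO5 cells AKT1 was at 6.80, 3.92 and 2.16 FPKM in Distal, Medial and Proximal cells, a log2 ratio of 1.31 for Distal over Proximal that was not called in the authors' deposited table (q = 0.750). KAT3, a silent subunit that assembles with AKT1, was at 64.5, 26.6 and 16.2 FPKM in the SPT zones from Distal to Proximal and at 26.0, 48.8 and 29.0 FPKM in the PUB25 zones. KCS11, which shares the locus, was at between 2.31 and 9.45 FPKM in the 9 zones.

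PHO1, which exports phosphate into the xylem, had another distribution. In the SPT line it stood at 23.3 FPKM in Distal and 23.4 FPKM in Medial, against 1.41 FPKM in Proximal cells. Within the TMO5 line it stood at 16.1 FPKM in Distal, 2.93 FPKM in Medial and 5.65 FPKM in Proximal cells. In PUB25 cells it was at 0.265, 0.159 and 0.0385 FPKM in Distal, Medial and Proximal cells and so was not measured. PHO1 was thus high where NRT1.1 was low, in the TMO5 line, and low where NRT1.1 was high, in the PUB25 line. In the SPT line the 2 genes did not part in this way, as both were lowest in Proximal cells. These levels were not tested between lines. According to the authors' deposited table of the SPT line PHO1 rose in Distal against Proximal (log2 ratio 3.33, q = 0.000359) and Medial against Proximal cells (3.34, q = 0.000359), while Distal and Medial were not set apart (-0.01, q = 0.981). In the authors' deposited table of the TMO5 line it rose in Distal against Proximal (1.36, q = 0.0444) and Distal against Medial cells (2.12, q = 0.00777), and Medial against Proximal was not called (-0.76, q = 0.624).

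The summed xylem, endodermis and phloem markers were, like PHO1, lowest in Proximal cells of the SPT line. The sum of the 3 stele markers was not, at 36.7, 25.9 and 31.5 FPKM in Distal, Medial and Proximal cells. Of these 3, AHK4 (27.8, 14.6 and 14.5 FPKM) and GATA23 (2.14, 2.98 and 0.352 FPKM) were lowest in Proximal cells, and SHR was not. The 11 xylem markers summed to 561 FPKM in Distal and 963 in Medial, against 16.1 in Proximal cells, where 4 of 11 reached 1 FPKM and TED6 was at 0. The 7 endodermis markers summed to 352, 169 and 23.4 FPKM in Distal, Medial and Proximal cells of the SPT line, where all 7, all 7 and 4 reached 1 FPKM. The 5 phloem markers summed to 77.4, 59.3 and 7.94 FPKM, with 5, 4 and 2 at 1 FPKM or more and none at 0. Single markers ran against PHO1 in SPT: SCR of the endodermis was at 5.58 FPKM in Distal against 18.3 in Proximal cells. The xylem marker TMO5 was at 5.11 FPKM in Distal against 9.41 in Proximal cells, and the stele marker SHR at 6.73 FPKM in Distal against 16.7 in Proximal cells. Among TMO5 cells the summed xylem markers had the same order as PHO1, at 873 FPKM in Distal, 377 in Medial and 741 in Proximal cells, with VND6 and TED6 at 0 in Medial cells. Of the 11 only the marker TMO5 ran against this order there, at 240, 354 and 481 FPKM in Distal, Medial and Proximal cells. The part of all these markers in the PHO1 result was not tested.

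SKOR and HKT1 had their highest levels in the zones where PHO1 was high, and neither was called in a zone pair of the authors' deposited tables. SKOR was at 2.65 FPKM in Distal and 3.12 in Medial, against 0.312 FPKM in Proximal cells of the SPT line, log2 ratios over Proximal of 1.48 (q = 0.317) and 1.65 (q = 0.357) in the authors' deposited table. It was at 1.18, 0.134 and 0.233 FPKM in Distal, Medial and Proximal cells of the TMO5 line and at 0.202, 0.585 and 0.604 FPKM in those of the PUB25 line. AT3G02840, which shares the deposited locus with SKOR, had its lowest level in Distal and its highest in Proximal cells of PUB25, as SKOR did. In SPT it was highest in Proximal cells, where SKOR was lowest. In TMO5 it had the zone order of SKOR, at 7.70, 2.54 and 3.84 FPKM in Distal, Medial and Proximal cells. It was at 30.8, 89.1 and 133 FPKM in Distal, Medial and Proximal cells of PUB25 and 25.5, 53.3 and 55.8 FPKM in those of SPT. HKT1 was at 1.76 FPKM in Distal and 1.37 in Medial cells of the SPT line and listed at 0 in Proximal cells, so no fold is given. In the TMO5 line HKT1 was at 1.30, 0.146 and 0.299 FPKM in Distal, Medial and Proximal cells. Within the PUB25 line HKT1 was listed at 0 in Distal and Medial cells and at 0.0216 FPKM in Proximal cells.

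**Figure D2:**
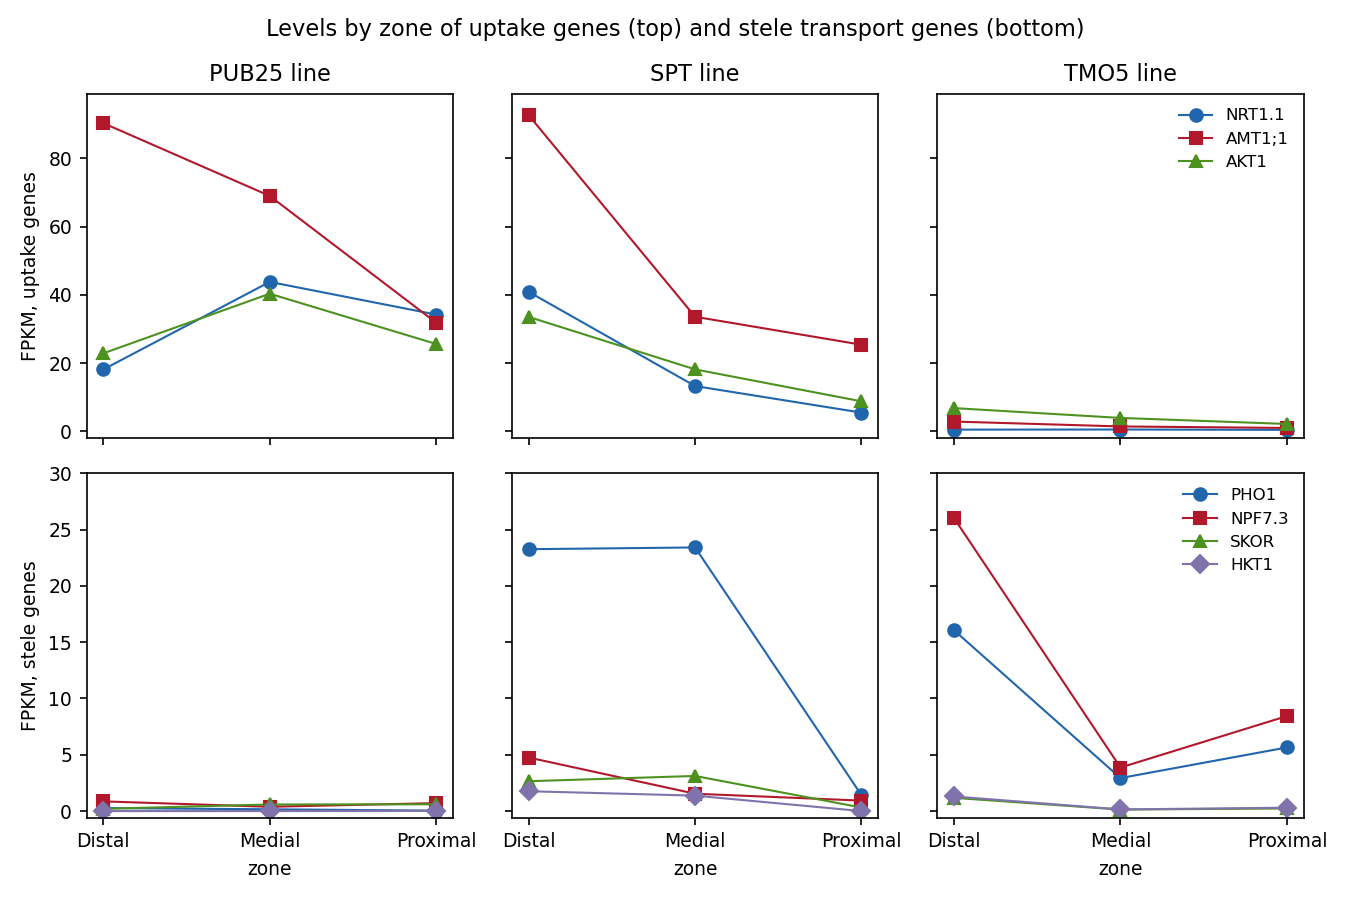
FPKM (y axis, linear) by zone (x axis) in the 3 lines for the uptake genes NRT1.1, AMT1;1 and AKT1 (top) and for the stele genes PHO1, NPF7.3, SKOR and HKT1 (bottom), 1 value per zone with no error. The uptake genes are at 6.80 FPKM or less in TMO5, whereas PHO1 reaches 16.1 and NPF7.3 reaches 26.0 FPKM there, and in PUB25 none of the 4 stele genes reaches 1 FPKM.

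NPF7.3, which loads nitrate into the xylem, was taken from the list of nitrate genes and is plotted beside PHO1. It was at 26.0 FPKM in Distal, 3.87 in Medial and 8.43 in Proximal cells of the TMO5 line, the order of PHO1. It rose there in Distal against Proximal cells in the authors' deposited table (log2 ratio 1.52, q = 0.0133). In SPT cells NPF7.3 was at 4.75, 1.54 and 0.930 FPKM in Distal, Medial and Proximal cells and rose in Distal against Proximal cells in the authors' deposited table (1.58, q = 0.000359). PHO1 and NPF7.3 differ in the SPT Medial zone, where PHO1 held its Distal level and NPF7.3 did not.

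IRT1, the iron importer, was listed at 0 in 8 of the 9 zones and at 0.103 FPKM in SPT Distal cells. FRO2, the reductase that supplies IRT1 with ferrous iron, was highest in Medial cells of the PUB25 line, at 115 FPKM, and lowest of the 3 zones in Proximal cells, at 44.6 FPKM. In the SPT line FRO2 was at 45.6 FPKM in Distal, 5.44 in Medial and 4.27 in Proximal cells. FIT, the factor that activates both genes, was at 21.7, 27.3 and 10.4 FPKM in the PUB25 zones from Distal to Proximal. In the SPT line FIT was highest in Distal cells, and it was at 8.99 and 7.39 FPKM in Medial and Proximal cells. FRO2 rose in Distal against Proximal cells in the authors' deposited tables, by 3.14 in SPT (q = 0.000359) and 1.15 in PUB25 (q = 0.000407) on the log2 scale. FIT rose there too in the authors' deposited tables, by 1.57 in SPT (q = 0.000359) and 0.99 in PUB25 (q = 0.000407). In TMO5 cells FRO2 reached at most 0.401 FPKM and FIT at most 3.84 FPKM. IRT2, a close relative of IRT1, was at 3.95, 2.03 and 0.317 FPKM in Distal, Medial and Proximal cells of the SPT line.

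**Figure D3:**
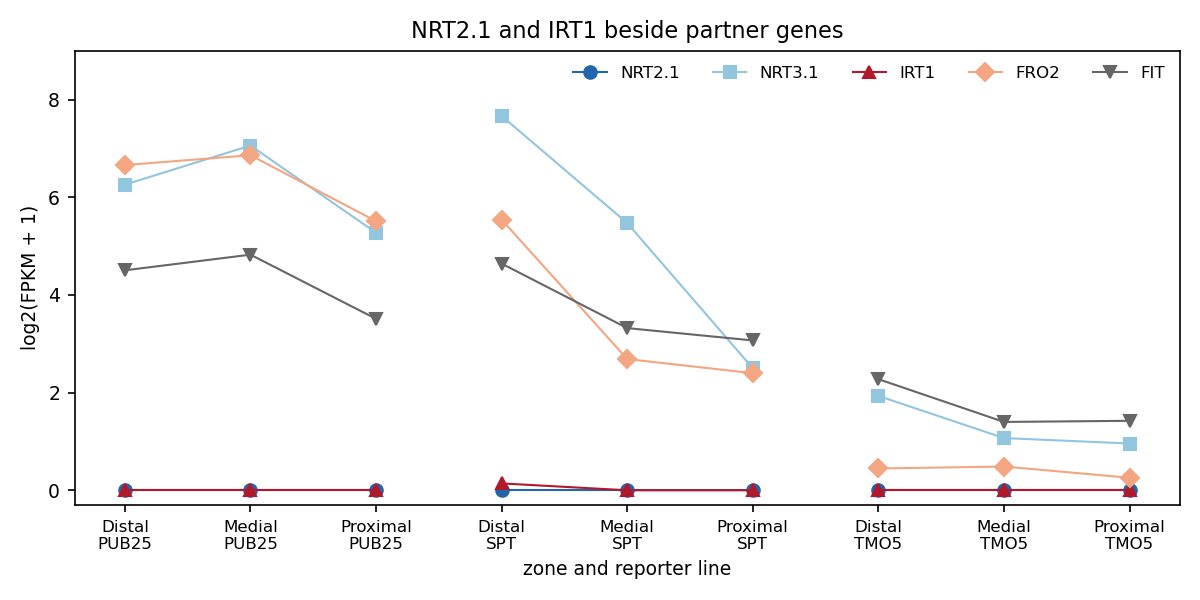
Levels as log2(FPKM + 1) (y axis) of NRT2.1 and IRT1 beside NRT3.1, FRO2 and FIT in the 3 zones of each line (x axis), 1 value per zone with no error. NRT2.1 is at 0 in all 9 zones and IRT1 in 8 of 9, while NRT3.1 reaches 202 FPKM and FRO2 reaches 115 FPKM.

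Counted over the members, the SPT contrast of Distal against Proximal cells gave 5 that rose and none that fell in the authors' deposited table, out of 7 measured. They were NRT1.1, AMT1;1, AMT1;3, PHO1 and AKT1, and the background was 24.7% of 17365 measured genes called higher and 23.1% called lower. All 7 measured members were at least 2-fold higher with no test, HKT1 counted although it is listed at 0 in Proximal cells, and 0 were 2-fold lower, against 24.3% higher and 21.8% lower of all genes. In the PUB25 line 2 of the 4 measured members rose and 1 fell in the authors' deposited table, against 19.6% higher and 17.2% lower of 16605 genes. There 1 member, AMT1;1, was at least 2-fold higher and none lower, against 9.46% and 6.98% of genes. Within the TMO5 line 1 of the 3 measured members rose, PHO1, and none fell in the authors' deposited table, against 1.27% higher and 0.266% lower of 15061 genes. There PHO1 and AKT1 were at least 2-fold higher and none lower, against 7.83% and 1.20% of genes.

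For Medial against Proximal cells the authors' deposited table called 4 members higher and none lower in the SPT line, against 17.4% and 17.3% of genes. In PUB25 cells it was 3 higher and none lower in the authors' deposited table, against 14.7% and 11.7% of genes. Among TMO5 cells no member was called either way in the authors' deposited table, against 0.0266% and 0.186% of genes. For Distal against Medial cells 4 members rose and none fell in the authors' deposited table of the SPT line, against 11.7% and 10.3% of genes. Within the PUB25 line 1 rose and 2 fell in the authors' deposited table, against 11.0% and 11.4% of genes. In the TMO5 line 1, PHO1, rose and none fell in the authors' deposited table, against 2.11% and 0.00664% of genes. The 3 comparisons of a line share their zones, so these counts are not separate evidence. In SPT, AMT1;3, SKOR and HKT1 count as measured through their Distal and Medial levels. The same holds for AMT1;3 in PUB25 and AMT1;1 in TMO5, at 0.455 and 0.985 FPKM in Proximal cells. In all 3 lines the shares over measured members therefore support nothing beyond the members' own values.

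**Figure D4:**
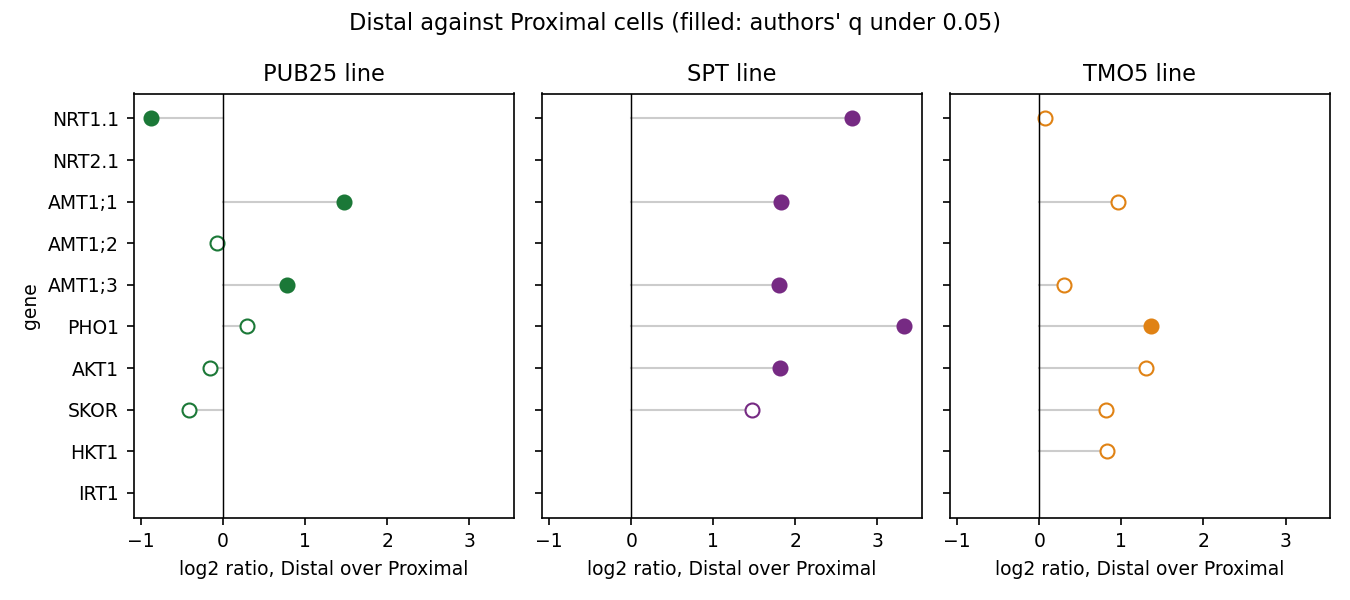
Log2 ratio of FPKM + 1, Distal over Proximal (x axis), of each transporter gene (rows) in the 3 lines, filled where the q in the authors' deposited table is under 0.05; genes listed at 0 in either zone have no point. NRT1.1 lies at -0.88 in PUB25 and 2.69 in SPT, and PHO1 is filled in SPT (3.33) and TMO5 (1.36).

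The other genes of each pathway were counted from lists of their known members, for Distal against Proximal cells at a q under 0.05 in the authors' deposited tables. The median log2 ratio of all measured genes was 0.06 in the SPT, -0.01 in the PUB25 and 2.5e-05 in the TMO5 line. Of all measured genes 24.7% were called higher and 23.1% lower in SPT, 19.6% and 17.2% in PUB25, and 1.27% and 0.266% in TMO5. The counts of each list that follow stand beside these shares, and several are near them. Of the nitrate genes 12 of 16 measured rose and none fell in SPT (median log2 ratio 1.15), 2 of 15 rose and 4 fell in PUB25 (-0.18), and 1 of 13 rose and none fell in TMO5 (0.51), by the authors' deposited tables. Besides NRT3.1, the regulator TGA4 rose in the authors' deposited tables, at 25.5 FPKM in Distal cells of SPT (2.35 over Proximal cells, q = 0.000949) and 22.9 FPKM in Distal against 7.69 in Proximal cells of PUB25 (1.46, q = 0.000407). The nitrate reductase NIA2 was at 30.6 FPKM in Distal against 5.65 FPKM in Proximal cells of SPT and rose in the authors' deposited table (2.25, q = 0.000359). The abscisic acid and nitrate carrier NPF4.6 did as NRT1.1 did in the authors' deposited tables, with a rise in SPT (16.1 FPKM in Distal against 4.40 in Proximal cells, 1.66, q = 0.000359) and a fall in PUB25 (-0.71, q = 0.000407, with 9.16 FPKM in Proximal cells). NIA1 and the manganese and iron carrier NRAMP1 were the other list genes with that turn in the authors' deposited tables, at 0.69 and 0.92 in SPT and -0.48 and -0.64 in PUB25.

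Of the ammonium genes 1 of 5 measured rose and none fell in SPT (median 0.29), 2 rose and 1 fell of 5 in PUB25 (0.51), and none of 4 was called in TMO5 (0.52), by the authors' deposited tables. The SPT count of genes that rose is near the 24.7% of all genes called higher. The glutamine synthetase gene GLN1;2 rose in both meristem lines in the authors' deposited tables, at 14.2 FPKM in Distal against 2.25 in Proximal cells of SPT (2.23, q = 0.000359) and 16.8 FPKM in Distal against 10.2 in Proximal cells of PUB25 (0.67, q = 0.000407). GLN1;1 rose in PUB25 in the authors' deposited table (150.1 FPKM in Distal cells, 0.51 over Proximal cells, q = 0.00342). The ammonium carrier AMT2;1 fell in PUB25 in the authors' deposited table (4.71 FPKM in Distal against 7.73 in Proximal cells, -0.61, q = 0.0350).

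Of the phosphate genes 4 of 9 measured rose and none fell in SPT (median 1.61), 4 of 9 rose and 1 fell in PUB25 (0.48), and none of 6 was called in TMO5 (0.38), by the authors' deposited tables. The uptake carrier PHT1;4 was at 28.0 FPKM in Distal, 5.39 in Medial and 1.12 in Proximal cells of SPT and at 18.7, 19.8 and 5.26 FPKM in PUB25. It rose in Distal against Proximal cells in the authors' deposited tables of SPT (3.77, q = 0.000359) and PUB25 (1.66, q = 0.000407), while PHO1 was under 1 FPKM in PUB25. WRKY6, a known repressor of PHO1, rose in SPT in the authors' deposited table, at 237 FPKM in Distal against 76.9 in Proximal cells (1.61, q = 0.000359), the pair of zones in which PHO1 rose. In PUB25, where PHO1 was not measured, WRKY6 was at 113, 191 and 115 FPKM, and in TMO5 it was at 9.59, 2.87 and 4.18 FPKM in Distal, Medial and Proximal cells. The phosphate sensor gene SPX2 rose in SPT in the authors' deposited table (32.4 FPKM in Distal against 8.49 in Proximal cells, 1.82, q = 0.000359). WRKY42, a relative of WRKY6, rose in PUB25 in the authors' deposited table (9.84 FPKM in Distal against 1.02 in Proximal cells, 2.43, q = 0.000407). PHO2, which marks PHO1 protein for breakdown, fell in PUB25 in the authors' deposited table (1.71 FPKM in Distal against 7.36 in Proximal cells, -1.63, q = 0.000407).

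Of the potassium genes 4 of 8 measured rose and none fell in SPT (median 0.68), 1 rose and 1 fell of 8 in PUB25 (0.06), and none of 5 was called in TMO5 (0.28), by the authors' deposited tables. KAT3 rose in SPT in the authors' deposited table (1.93, q = 0.000359) and was not called in PUB25 (-0.15, q = 0.486), as AKT1 was. The outward channel GORK rose in both lines in the authors' deposited tables, at 19.7 FPKM in Distal against 3.96 in Proximal cells of SPT (2.06, q = 0.000359) and 18.8 FPKM in Distal against 7.29 in Proximal cells of PUB25 (1.25, q = 0.000407). The carrier gene KUP4 rose in SPT in the authors' deposited table (14.8 FPKM in Distal against 8.03 in Proximal cells, 0.80, q = 0.00906). HAK5, the high-affinity potassium carrier, reached at most 0.232 FPKM in any zone.

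Of the sodium genes 2 of 8 measured rose and none fell in SPT (median 1.11), 1 rose and 2 fell of 7 in PUB25 (-0.24), and none of 7 was called in TMO5 (0.10), by the authors' deposited tables. The SPT count of genes that rose is near the 24.7% of all genes called higher. The SPT median counts CHX17, which is measured there only through its Distal level, at 10.6, 0.510 and 0.103 FPKM in Distal, Medial and Proximal cells. It also counts NHX6, at 39.1, 1.80 and 3.76 FPKM in these zones and not called in the authors' deposited table (3.07, q = 0.424). No measured sodium gene lies near that median, which falls between SOS1 at 0.30 and SOS3 at 1.91. The vacuolar exchanger NHX1 rose in SPT (27.0 FPKM in Distal against 5.26 in Proximal cells, 2.16, q = 0.000359) and in PUB25 (15.8 FPKM in Distal against 7.07 in Proximal cells, 1.06, q = 0.000407) in the authors' deposited tables. The calcium sensor gene SOS3 rose in SPT in the authors' deposited table (26.2 FPKM in Distal against 6.23 in Proximal cells, 1.91, q = 0.000359). NHX2 and NHX5 fell in PUB25 in the authors' deposited table, with log2 ratios of -0.83 (q = 0.000407) and -0.59 (q = 0.0249).

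Of the iron genes 10 of 18 measured rose and none fell in SPT (median 1.13), 5 rose and 3 fell of 14 in PUB25 (0.27), and 1 of 14 rose and none fell in TMO5 (0.62), by the authors' deposited tables. ABCG37, which exports phenolic compounds that mobilize iron, was at 481 FPKM in Distal against 86.0 in Proximal cells of SPT and rose in the authors' deposited table (2.47, q = 0.000359). It rose in TMO5 as well in the authors' deposited table, at 15.2 FPKM in Distal against 5.56 in Proximal cells (1.31, q = 0.00777). The reductase gene FRO3 rose in both meristem lines in the authors' deposited tables, by 2.99 in SPT (q = 0.000359) and 2.03 in PUB25 (q = 0.000407). The vacuolar iron exporters NRAMP3 and NRAMP4 fell in PUB25 in the authors' deposited table, with log2 ratios of -1.24 and -1.34 (q = 0.000407 for each).

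Of the sulfate and boron transporters 3 of 5 measured rose and 1 fell in SPT (median 2.42), 2 rose and 2 fell of 5 in PUB25 (0.32), and none of 3 was called in TMO5 (-0.33), by the authors' deposited tables. The sulfate importer SULTR1;2 was at 83.3 FPKM in Distal against 3.30 in Proximal cells of SPT (4.29, q = 0.000359 in the authors' deposited table). The boron exporter BOR2 rose in the authors' deposited tables of SPT (87.8 FPKM in Distal against 5.03 in Proximal cells, 3.88, q = 0.000359) and PUB25 (57.2 FPKM in Distal against 24.3 in Proximal cells, 1.20, q = 0.000407). The boric acid channel NIP5;1 rose in SPT in the authors' deposited table (60.4 FPKM in Distal against 10.5 in Proximal cells, 2.42, q = 0.000359). BOR1, which loads boron into the xylem, fell in SPT (-1.24, q = 0.000359) and PUB25 (-1.40, q = 0.000407) in the authors' deposited tables, and BOR4 fell in PUB25 (-2.80, q = 0.000407).

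Of the plasma membrane proton pumps 4 of 5 measured rose and 1 fell in SPT (median 1.19), 1 of 5 rose and none fell in PUB25 (0.24), and 1 of 4 rose and none fell in TMO5 (0.56), by the authors' deposited tables. AHA2, the main pump of the root, was at 111 FPKM in Distal against 33.2 in Proximal cells of SPT (1.71, q = 0.000359 in the authors' deposited table). It stood at 24.6 FPKM in Distal against 9.93 in Proximal cells of TMO5 (1.23, q = 0.00777 in the authors' deposited table). AHA3 rose in SPT (12.5 FPKM in Distal against 0.192 in Proximal cells, 3.50, q = 0.00196) and AHA11 fell (3.49 FPKM in Distal against 18.1 in Proximal cells, -2.09, q = 0.0174) in the authors' deposited table. The medians of these lists were above that of all genes in SPT for each of the 8 lists. No list was tested as a set, and the list medians count PHT1;1, listed at 0 in SPT Proximal cells, through the added 1 FPKM. Some list genes count as measured in SPT only through their Distal level, such as CHX17 and WRKY42, at 0.103 and 0.0432 FPKM in Proximal cells. The SPT medians and counts therefore support nothing beyond the genes' own values.

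**Figure D5:**
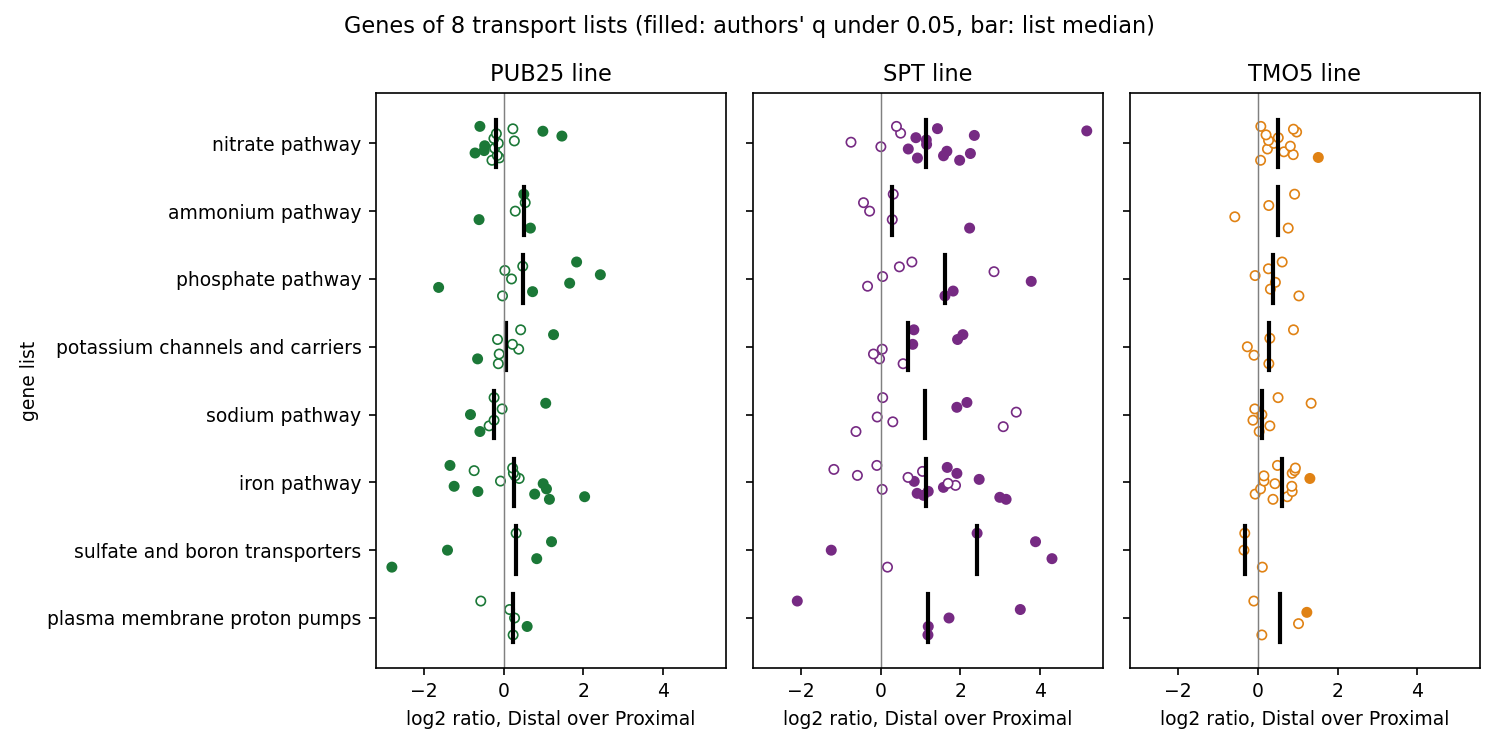
Log2 ratio of FPKM + 1, Distal over Proximal (x axis), of the measured genes of 8 transport lists (rows) in the 3 lines, filled where the q in the authors' deposited table is under 0.05, with a black bar at the list median; PHT1;1 in SPT, listed at 0 in Proximal cells, has no point. The list medians lie between 0.29 and 2.42 in SPT and between -0.24 and 0.51 in PUB25.

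Over the 9 values of line and zone, AKT1 and NRT1.1 had a Pearson r of 0.964 on the log2(FPKM + 1) scale, AMT1;1 and NRT1.1 of 0.942, and AKT1 and AMT1;1 of 0.937. PHO1 and NRT1.1 had an r of -0.29, and SKOR and PHO1 of 0.755. These are descriptions over 9 values that share lines and libraries. Among 7037 genes that had a symbol in the reference names and averaged 1 FPKM or more over the 9 values, those most like each member were PRS3 and MAN7 for NRT1.1 (r of 0.994 for each), ATBFRUCT1 and LBD13 for AMT1;1 (0.995 and 0.994), and ARR9 and NiaP for AKT1 (0.992 and 0.989). They were CYP96A7 and DER2.1 for AMT1;3 (0.990 and 0.985), MYB59 and LCR69 for PHO1 (0.987 and 0.985), and BLH7 and ATVPS33 for SKOR (0.964 for each). MYB59 was at 15.1, 14.4 and 0.460 FPKM in Distal, Medial and Proximal cells of SPT and at 13.7, 2.21 and 3.20 FPKM in those of TMO5, with the plateau of PHO1 over Distal and Medial cells in the first line and its dip in the second.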

How the data were processed

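Per the labels' protocols, RNA of the sorted protoplasts was isolated with a QIAGEN RNeasy micro kit, and a NuGEN Ovation ultralow kit served for the libraries. Bowtie, TopHat, Cufflinks and Cuffdiff with TAIR10 are named in the submitters' processing notes, without versions or roles. The authors deposited 1 FPKM value for each gene in each zone of a line, and how they pooled the libraries is not stated. Their deposited tables add a log2 fold and a q-value for each zone pair. The smallest q-value was 0.000407 in PUB25, 0.000359 in SPT and 0.00777 in TMO5. A limma test per library was planned. With no values per library it could not be run, so the planned fallback was used: log2 ratios of FPKM + 1, a 2-fold count with no test, and the authors' q under 0.05.

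Members were the rows whose gene name equals a given locus. Rows that join several genes (1390 of 32619) were left out. The members and lists were chosen with earlier results of these data known. Named were all 10 members, up to 3 genes per list and line with the largest Distal over Proximal ratio at a q under 0.05 and at least 5 FPKM, genes needed to describe a list, and the 2 genes most like each member. Of 155 listed names 4 (PHO1;H10, MTP8, BTSL1, SGN3) did not match the reference and 8 had no row of their own. The lists cover the nitrate, ammonium, phosphate, potassium, sodium and iron pathways, sulfate and boron transporters, and proton pumps. Markers cover epidermis and root hair, endodermis, stele, xylem, phloem and root cap.

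The deposited positions are on TAIR10. Sequences were read at RefSeq's own positions on TAIR10.1. Alternatives were a pseudocount of 0.1, no filter or a mean of at least 5 FPKM, quantile normalization, median centring, and the authors' q in place of 2-fold. The computation was tested on simulated data. Python 3.11.15 was used with pandas 2.3.3, numpy 2.4.6, matplotlib 3.10.9 and scipy 1.17.1.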

Additional observations from a re-analysis of the deposited data

Results flagged for a closer look

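NRT1.1 is listed because its Distal against Proximal log2 ratio was -0.88 in the PUB25 line and 2.69 in the SPT line, each past a q of 0.05 in the authors' deposited tables and of opposite sign. The difference between the lines was not tested. The 4 root cap markers, summed over Distal, Medial and Proximal cells, stood at 357, 673 and 466 FPKM in PUB25 and at 623, 227 and 162 FPKM in SPT, in the order of NRT1.1 in each line. Single markers did not all follow it: FEZ was at 1.43 FPKM in Distal against 45.1 in Proximal cells of SPT, and BRN2 at 229 FPKM in Distal against 45.3 in Proximal cells of PUB25. Each had the direction of NRT1.1 in the other meristem line. There FEZ was at 1.93 FPKM in Distal against 90.3 in Proximal cells of PUB25, and BRN2 at 233 against 5.33 FPKM in those of SPT. The part of the markers in the NRT1.1 result was not tested.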

How the results depend on the processing

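No paired analysis was possible because the files give 1 value per line and zone, with no column per library. For the same reason leaving out each library could not be run, the spread between libraries is unknown, and depth sets a limit that cannot be given. No log2 ratio of a member that was 2-fold or past the authors' q, and no list median of at least 2-fold, changed sign. Of 108 recomputed counts of 2-fold members 94 stayed within 1.5 times, and of 150 recomputed member ratios 142 stayed on their side of 2-fold. With a pseudocount of 0.1, 2 members in place of 1 were 2-fold higher in PUB25 in Distal against Proximal cells, and 2 in place of 1 in Medial against Proximal cells. Quantile normalization left 0 in PUB25 Medial against Proximal cells, with AMT1;1 at 0.97. A minimum mean of 5 FPKM left 4 of 7 in SPT Distal against Proximal, 2 of 4 in SPT Medial against Proximal and 1 of 2 in TMO5 Distal against Proximal cells. With no filter 2 in place of 1 were 2-fold higher in TMO5 Distal against Medial cells. By the authors' q, which asks for no minimum fold, PUB25 had 2 higher in place of 1 and 1 lower in place of 0 in Distal against Proximal, 3 higher in place of 1 in Medial against Proximal, and 1 higher in place of 0 and 2 lower in place of 1 in Distal against Medial cells. By the authors' q SPT had 4 higher in place of 2 in Distal against Medial cells, and TMO5 had 1 in place of 2 in Distal against Proximal cells. Quantile normalization moved the median log2 ratio of all genes in TMO5 Distal against Medial cells by -0.11, and PHO1 was then at 1.95 in place of 2.12.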

Other observations

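The remaining cell type markers give the setting of the transporter levels. The 6 epidermis and root hair markers summed to 102, 138 and 124 FPKM in Distal, Medial and Proximal cells of the SPT line and to 183, 165 and 131 FPKM in those of the PUB25 line. CPC and WER held 60.7 and 28.6 FPKM of the SPT Distal sum. Single markers differed in SPT: COBL9 and EXPA7 were highest in Distal, CPC in Medial, and WER, GL2 and RHD6 in Proximal cells. The 7 endodermis markers summed to 26.0, 32.6 and 14.7 FPKM in the PUB25 zones and to 7.21, 20.4 and 14.3 FPKM in the TMO5 zones, from Distal to Proximal. The 3 stele markers with a row summed highest in the TMO5 line, at 169.8, 218 and 226 FPKM, against 73.8, 48.2 and 24.8 FPKM in the PUB25 line and 36.7, 25.9 and 31.5 FPKM in the SPT line, in the same order of zones. SHR made up 120.0, 159 and 171 FPKM of the TMO5 sums, AHK4 in Distal cells was at 52.0 FPKM in PUB25 and 49.0 FPKM in TMO5, and GATA23 was listed at 0 in TMO5 Medial and Proximal cells. Xylem markers of the PUB25 line, where PHO1 was under 1 FPKM, summed to 190.5, 48.8 and 56.4 FPKM, and its phloem markers to 3.63, 1.86 and 1.35 FPKM. These sums were described and not tested.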
